A study of Mus musculus with 2 samples.

Results

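Genes of the Eph and ephrin family, 7 in all, were followed from the crypt base to the villus tip: the receptors Ephb2, Ephb3, Ephb4 and Epha2, and the ligands Efnb1, Efnb2 and Efna1. They were taken by name, and all 7 are among the 55401 genes of the annotation used for counting, in which 22 genes are Eph receptors or ephrins. The cells came from the small intestine of 1 TrnA-mutant mouse, 55 weeks old, with a mutation load of 73%; TrnA is the mitochondrial gene for the alanine transfer RNA. Villi and crypts had been released with EDTA, dissociated and stained for CD45, CD31, TER-119 and CD326 before sorting, with gates not given in the labels, and the sorted cells were fixed and taken into a 10x Multiome assay, which reads RNA and open chromatin (ATAC) in the same cells. Strain and sex are not given. Both libraries hold the same 12363 cell barcodes, and no other animal was analysed here. All comparisons below are therefore between cell classes of 1 mutant animal, with no test and no replicate check, and none of them measures an effect of the mutation.

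Eph receptors are receptor tyrosine kinases that bind ephrins on neighbouring cells, so that both partners sit in membranes and signal at cell contacts. EphB receptors bind mainly the transmembrane ephrin-B ligands, and EphA receptors mainly the lipid-anchored ephrin-A ligands; the pairs are known for repulsion and for drawing boundaries between cell groups. In the mouse intestine Ephb2 and Ephb3 are Wnt target genes of the crypt, ephrin-B ligands are carried by differentiating cells above them, and loss of both receptors is known to misplace Paneth cells.

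Start-site sequences of the 4 receptors are shown because their accessibility is compared below. They are RefSeq windows of the GRCm38.p6 build, each of 300 bases, with 250 before and 50 after an annotated start. Capitals mark CG dinucleotides in the Ephb windows and the letters CTTTGA, the reverse complement of TCAAAG, in the Epha2 window. The Ephb2 window is chr4:136835963-136836262 on the minus strand, the Ephb3 window chr16:21204545-21204844 on the plus strand, the Ephb4 window chr5:137349859-137350158 on the plus strand and the Epha2 window chr4:141300971-141301270 on the plus strand.
Ephb2: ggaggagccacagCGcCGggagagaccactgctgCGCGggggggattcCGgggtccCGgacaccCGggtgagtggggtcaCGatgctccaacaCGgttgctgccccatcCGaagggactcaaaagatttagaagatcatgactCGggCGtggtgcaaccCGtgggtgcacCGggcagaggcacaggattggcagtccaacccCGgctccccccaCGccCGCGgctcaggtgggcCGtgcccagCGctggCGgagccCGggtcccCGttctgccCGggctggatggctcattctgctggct
Ephb3: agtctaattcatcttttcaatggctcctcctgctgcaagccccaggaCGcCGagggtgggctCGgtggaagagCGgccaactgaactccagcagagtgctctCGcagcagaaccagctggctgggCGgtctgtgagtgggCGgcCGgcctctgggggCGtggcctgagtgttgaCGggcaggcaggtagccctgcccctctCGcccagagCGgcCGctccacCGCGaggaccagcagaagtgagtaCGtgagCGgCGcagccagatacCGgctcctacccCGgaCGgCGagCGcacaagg
Ephb4: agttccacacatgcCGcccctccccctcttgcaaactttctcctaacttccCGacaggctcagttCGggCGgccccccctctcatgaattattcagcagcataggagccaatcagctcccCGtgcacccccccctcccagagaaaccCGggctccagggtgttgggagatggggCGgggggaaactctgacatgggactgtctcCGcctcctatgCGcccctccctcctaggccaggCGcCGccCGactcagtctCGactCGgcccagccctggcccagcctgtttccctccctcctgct
Epha2: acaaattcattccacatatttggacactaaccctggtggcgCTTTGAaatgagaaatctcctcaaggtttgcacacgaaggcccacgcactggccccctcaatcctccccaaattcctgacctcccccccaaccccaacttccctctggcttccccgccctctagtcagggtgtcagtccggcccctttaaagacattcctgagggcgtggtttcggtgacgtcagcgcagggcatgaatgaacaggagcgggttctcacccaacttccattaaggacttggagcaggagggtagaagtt

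In the same build the receptor genes lie at chr4:136647536-136836326 (Ephb2), chr16:21204620-21223309 (Ephb3), chr5:137350109-137374522 (Ephb4) and chr4:141301221-141329384 (Epha2). The ligand genes lie at chrX:99136061-99149022 (Efnb1), chr8:8617235-8661242 (Efnb2) and chr3:89271730-89280951 (Efna1). Each of the 4 windows lay wholly inside a deposited peak. The G and C content was 68.7% for Ephb2, 66.7% for Ephb3, 64.7% for Ephb4 and 54.7% for Epha2, against a median of 52.7% over 32851 windows of the table. They held 24, 23, 14 and 10 CG dinucleotides in the same order, against a median of 7. The Efnb2 window had 35 CG dinucleotides and 72.3% G and C, the highest content of the 8 windows of the 7 genes, with Efna1 having 2 windows. Motifs of 3 factors were searched on both strands: TCAAAG, the core recognised by TCF and LEF factors, is held by 16.0% of all windows, CAAAGTCC, an HNF4 half-site, by 1.42% and TTTATG, a CDX core, by 11.9%. Among the 8 windows the single match was CTTTGA in Epha2, beginning 209 bases before the start. A match is only a match of letters, and a window without one says nothing about the factor.

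Of the barcodes, 9872 were kept, with 5591 UMIs (unique molecular identifiers, 1 per captured RNA molecule), 1547 UMIs of nuclear-encoded genes and 12884.5 peak counts per cell at the median. Cells were clustered without any Eph or ephrin gene, and clusters were named from marker lists: 259 Paneth-like, 791 stem-like and 992 cycling-like cells at the crypt, 2768 enterocyte-like, 1500 goblet-like, 210 enteroendocrine-like, 96 tuft-like and 21 T lymphocyte-like cells. Stem-like and cycling-like cells together, 1783 in number, are called crypt progenitor-like. The remaining 3235 cells, 32.8%, stayed unnamed. Enterocyte-like cells were cut into 5 zones of 553 or 554 cells by villus landmark genes, from zone 1 at the villus base to zone 5 at the tip; tip landmarks stood at 26446 CPM in zone 5, against 2613 CPM in zone 1. The zones are ranges and not cell types. Tip and base landmarks set the cuts, so their levels do not test the order. Base landmarks stood at 8795 CPM in zone 1 and at 3254, 2804, 3059 and 2843 CPM in zones 2 to 5. Of zone 5, 91.5% was 1 cluster, led by Slc28a2, Nt5e and Ada, which are tip landmarks themselves. Another cluster, led by Fgf15 and Lct, made up 46.4% of zone 1. Zone 5 over zone 1 is thus in part a comparison of clusters. All RNA levels are counts per 1000000 nuclear-encoded UMIs (CPM), because mtDNA-encoded RNA took 54.3% of the UMIs of the median crypt progenitor-like cell and 79.3% of the median enterocyte-like cell. The intervals are exact 95% intervals that cover counting error only. Fewer cells of a type and less RNA per cell cannot be told apart in such sums where a class is mixed.

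**Figure D1:**
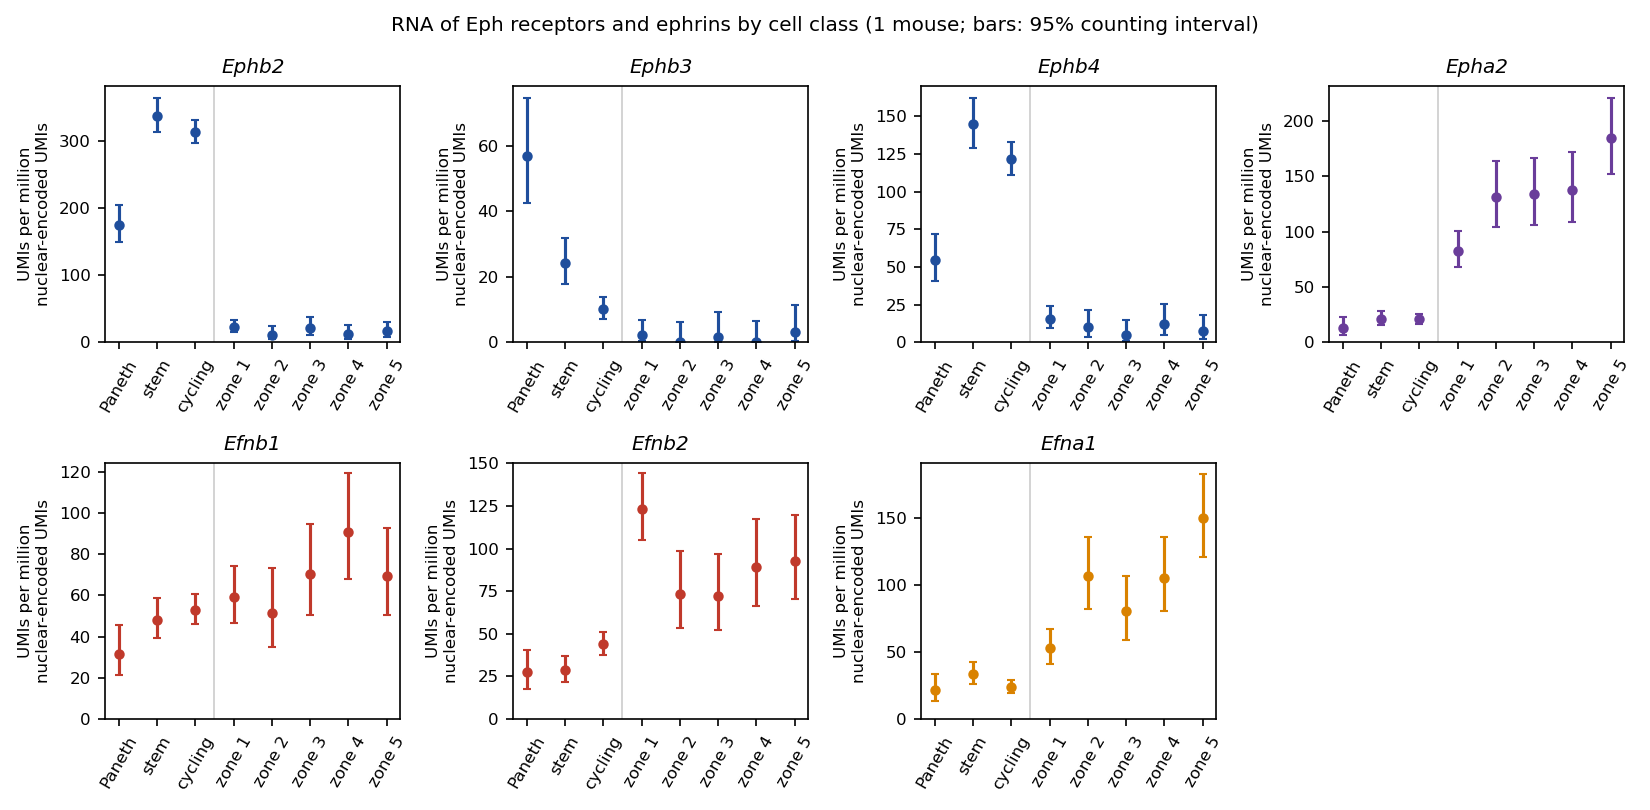
RNA of the 7 genes in CPM of nuclear-encoded UMIs, for Paneth-like, stem-like and cycling-like cells and for the 5 zones of enterocyte-like cells from villus base to tip; points are sums over the cells of a class and bars are 95% counting intervals. The 3 Ephb receptors sit high left of the grey line and near 0 right of it, and Epha2 and Efna1 run the other way, up to 184 and 149.5 CPM in zone 5.

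The 3 EphB receptors were crypt RNAs. Ephb2, the main EphB receptor of intestinal progenitors, stood at 175 CPM in Paneth-like cells (interval 149 to 204), 337 in stem-like cells (313 to 363) and 313 in cycling-like cells (296 to 331). In zones 1 to 5 it stood at 23.4, 11.7, 21.7, 12.5 and 17.3 CPM, from 7 to 30 UMIs a zone. The crypt and villus intervals did not overlap, while the 5 zones overlapped each other and had no order. In crypt progenitor-like cells Ephb2 was 17.4-fold higher than in enterocyte-like cells, a log2 difference of 4.12 (3.77 to 4.49), with 1963 UMIs against 68. Of 6425 genes with at least 20 UMIs over both classes, 36.4% were at least 2-fold higher in the progenitor-like cells and 15.4% at least 2-fold lower, and the median gene differed by 0.54 on the log2 scale. Against that background 3 of the 7 genes were past 2-fold higher, the EphB receptors, and 3 past 2-fold lower, Epha2, Efnb2 and Efna1.

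Ephb4, a receptor with ephrin-B2 as its main ligand, followed the profile of Ephb2. It stood at 54.7 CPM in Paneth-like cells (40.6 to 72.1), 145 in stem-like cells (129 to 162) and 122 in cycling-like cells (111 to 133), then at 15.6, 9.99, 5.02, 12.5 and 7.87 in zones 1 to 5. It was 11.6-fold higher in crypt progenitor-like cells relative to enterocyte-like cells (log2 3.54, 3.08 to 4.03). Over the 17 clusters of at least 50 cells, which share 1 library, the log2 levels of Ephb2 and Ephb4 had a Pearson correlation of 0.92.

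Ephb3, the receptor known for placing Paneth cells at the crypt base, had a steeper profile inside the crypt. Its level was 56.8 CPM in Paneth-like cells (42.5 to 74.5), 24.1 in stem-like cells (17.9 to 31.8) and 10.2 in cycling-like cells (7.3 to 13.8), with no overlap of intervals. Paneth and stem cells are both known from the crypt base. No position was measured in these dissociated cells, so the difference is given as one between classes only. The zones held 3, 0, 1, 0 and 2 UMIs. For the counts of 0 in zones 2 and 4 the floor of 3 counts is 4.99 and 5.35 CPM, and the intervals reach 6.14 and 6.58 CPM. The level was 14.9 CPM in crypt progenitor-like cells and 1.63 CPM in enterocyte-like cells, a 9.13-fold difference (log2 3.19, 2.01 to 4.67). The enterocyte-like level was 2.87% of the level in Paneth-like cells, and the summed 12 Paneth markers, which enterocytes lack, stood in the same enterocyte-like cells at 3.14% of their Paneth-like level. The Ephb3 share rests on 6 UMIs and is not above that of the Paneth markers, so it is not read as expression; the part of free RNA in it was not tested. The same enterocyte-like cells held Lgr5, a stem cell receptor, at 1.93% of its stem-like level, Ephb2 at 5.48% and Ephb4 at 7.71%.

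At the crypt base the receptors parted. In Paneth-like over stem-like cells, Ephb3 was 2.36-fold higher (log2 1.24, 0.65 to 1.83), Ephb4 2.65-fold lower (log2 -1.40, -1.87 to -0.97) and Ephb2 1.93-fold lower (log2 -0.95, -1.21 to -0.70). The median of 5247 genes in this comparison was -0.60, with 6.12% of genes at least 2-fold higher and 26.4% at least 2-fold lower. Ephb3 was the 1 gene of 7 past 2-fold higher and Ephb4 the 1 past 2-fold lower. With mtDNA-encoded UMIs in the denominator every gene moves up by 0.43 here, and Ephb3 stood at 1.67, Ephb2 at -0.52 and Ephb4 at -0.98, so that the Ephb4 call rests on the scale. Epha2, Efnb1, Efnb2 and Efna1 had differences of -0.69, -0.60, -0.06 and -0.63, each with an interval that reached 0. With each cell thinned to 500 nuclear-encoded UMIs Efnb1 turned to 1.04 (-0.45 to 2.45), and Epha2 stood at -2.18 there and at -2.31 without the cells of highest doublet score. The Paneth-like cells also carried stem cell RNA, with Lgr5 at 412 CPM against 537 in stem-like cells and the 11 stem markers at 3731 against 8324, and its part in the Ephb2 and Ephb4 levels of Paneth-like cells was not tested. In the other direction the 12 Paneth markers stood in stem-like cells at 1.47% of their Paneth-like level, while Ephb3 there was at 42.4% of its own.

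Epha2 was the receptor with a villus profile. Its level was 13.1 CPM in Paneth-like, 21.2 in stem-like and 21.1 in cycling-like cells, and 82.8, 131, 134, 137 and 184 in zones 1 to 5. In crypt progenitor-like cells it was 5.91-fold lower than in enterocyte-like cells (log2 -2.56, -2.86 to -2.28). In stem-like cells it was 8.68-fold lower than in zone 5 (log2 -3.12, -3.65 to -2.61). In that comparison of the axis ends, over 5125 genes with a median of 0.84, 46% of genes were at least 2-fold higher in stem-like cells and 14.3% at least 2-fold lower. Ephb2, Ephb3 and Ephb4 were higher in stem-like cells there, 3 of the 7, by log2 4.28, 2.94 and 4.20, the Ephb3 value resting on 2 UMIs in zone 5 with an interval of 1.01 to 6.02. Epha2, Efnb2 and Efna1, also 3 of the 7, were past 2-fold lower, with Efnb2 at -1.71 and Efna1 at -2.15, and Efnb1 differed by -0.52 (-1.05 to 0.02). With mtDNA-encoded UMIs in the denominator Epha2 remained past 2-fold lower at -1.95, while Efna1 came to -0.98, Efnb2 to -0.54 and Efnb1 turned to 0.65.

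Efna1, the ephrin-A ligand with high affinity for EphA2, was the ligand with the clearest villus profile. It stood at 21.9, 33.7 and 24.1 CPM in Paneth-like, stem-like and cycling-like cells, and at 53.1, 107, 80.2, 105 and 149.5 in zones 1 to 5. It was 3.32-fold lower in crypt progenitor-like cells relative to enterocyte-like cells (log2 -1.73, -2.01 to -1.46). Its profile over clusters was close to that of its receptor, with a correlation of 0.87 between Efna1 and Epha2. Within the villus, 2 of the 6 genes with at least 20 UMIs were at least 2-fold higher in zone 5 than in zone 1: Efna1 by log2 1.49 (1.03 to 1.96), with 95 UMIs against 68, and Epha2 by log2 1.15 (0.76 to 1.55), with 117 UMIs against 106. Over 4059 genes the median of this comparison was -0.32, and 8.03% of genes were at least 2-fold higher and 22.6% at least 2-fold lower. The other 5 genes had intervals that reached 0, among them Efnb2 at -0.41 (-0.87 to 0.03). The Epha2 value was between 0.58 and 1.16 under other settings and under 2-fold in 5 of them, among them both other ways of cutting the zones. Efna1 was between 0.92 and 1.94. With mtDNA-encoded UMIs in the denominator both were under 2-fold, at 0.58 for Epha2 and 0.92 for Efna1, while Ephb2 and Ephb4 stood past 2-fold lower at -1.01 and -1.57. Cells of zone 5 held fewer nuclear-encoded UMIs, 834 at the median against 1772 in zone 1, and with each cell thinned to 500 nuclear-encoded UMIs Efna1 differed by 1.94 and Epha2 by 0.99.

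The ephrin-B ligands had other profiles. Efnb1 differed less along the axis than Efnb2, at 31.7, 48.2 and 52.9 CPM in Paneth-like, stem-like and cycling-like cells. In zones 1 to 5 it stood at 59.4, 51.6, 70.2, 91.0 and 69.3 CPM. Its interval in zone 4, 67.8 to 119.7, lay above those of Paneth-like, stem-like and cycling-like cells. Its difference between crypt progenitor-like and enterocyte-like cells was -0.37 (-0.62 to -0.13), and it turned to 0.73 when all UMIs, mtDNA-encoded ones included, were the denominator. That scaling moves every gene of this comparison by 1.10 on the log2 scale; on it Ephb2, Ephb3 and Ephb4 remained higher in the progenitor-like cells, Epha2 remained past 2-fold lower at -1.46, and Efna1 and Efnb2 came to -0.63 and -0.22. Efnb2 stood at 27.3, 28.4 and 43.9 CPM in Paneth-like, stem-like and cycling-like cells and peaked above them: 123 in zone 1, then 73.2, 71.9, 89.2 and 92.9. It was 2.49-fold lower in crypt progenitor-like cells relative to enterocyte-like cells (log2 -1.32, -1.56 to -1.08).

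Efnb2 had its highest level in a cluster between crypt and villus, with an interval that overlapped that of goblet-like cluster 6, at 193 CPM (171 to 217). This cluster of 959 cells, led by Gsdmc2, Ces1f and Car4, reached no marker list and stayed unnamed; its median diffusion pseudotime, a distance from stem-like cells along the cell graph, was 1.46, against 0.77 in cycling-like and 2.67 in enterocyte-like cells. It held Efnb2 at 208 CPM (193 to 225) from 671 UMIs. Compared with crypt progenitor-like cells, Efnb2 was 5.39-fold higher (log2 2.43, 2.21 to 2.65) and Efna1 2.15-fold higher, where 8.74% of 6341 genes were at least 2-fold higher and 18.6% at least 2-fold lower. In the same comparison Ephb2 was 2.82-fold lower, at 114 CPM, Ephb4 2.72-fold lower, at 47.5, and Ephb3 9.6-fold lower, at 1.55 from 5 UMIs. Ephb2 and Ephb4 were thus at intermediate levels in these cells, and the Ephb3 UMIs, 5 here and 6 in enterocyte-like cells, were too few to compare those levels (log2 -0.07, -2.12 to 1.90).

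Pseudotime orders the same cells without class borders. The 7183 cells of the 9 clusters of the absorptive path, chosen after the data were seen, were cut into 10 bins of equal number. Ephb2 stood at 356, 329, 265, 119, 38.4 and 15.7 CPM in bins 1 to 6 and between 10.3 and 18 in bins 7 to 10. Ephb4 stood at 152, 134, 101, 47.7 and 21.1 in bins 1 to 5 and at most 15.4 after them, while Ephb3 was already at 3.75 in bin 3, against 25.8 in bin 1. Efnb2 had its peak at 207 in bin 4, where Ephb2 was at 119, with 19.3, 38.7 and 77.4 before it and 169 and 97.9 after it. Given the make-up of bin 4, this peak is largely the level of the unnamed cluster shown again. Epha2 began to differ later, with 32 in bin 4, 71.9 in bin 5 and 183 in bin 9, and Efna1 had 25.8 in bin 3 and 126 in bin 10. Bins 5 to 10 mix enterocyte-like clusters with an unnamed cluster of low depth, and no cluster makes up more than 40.5% of any of them. The late bins follow the order of the zones only in part. Landmark score and pseudotime had a Spearman correlation of 0.45 over enterocyte-like cells. The cluster that made up 91.5% of zone 5 was the largest in bin 8. In bins 9 and 10 the largest was the main cluster of zones 2 and 3.

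**Figure D2:**
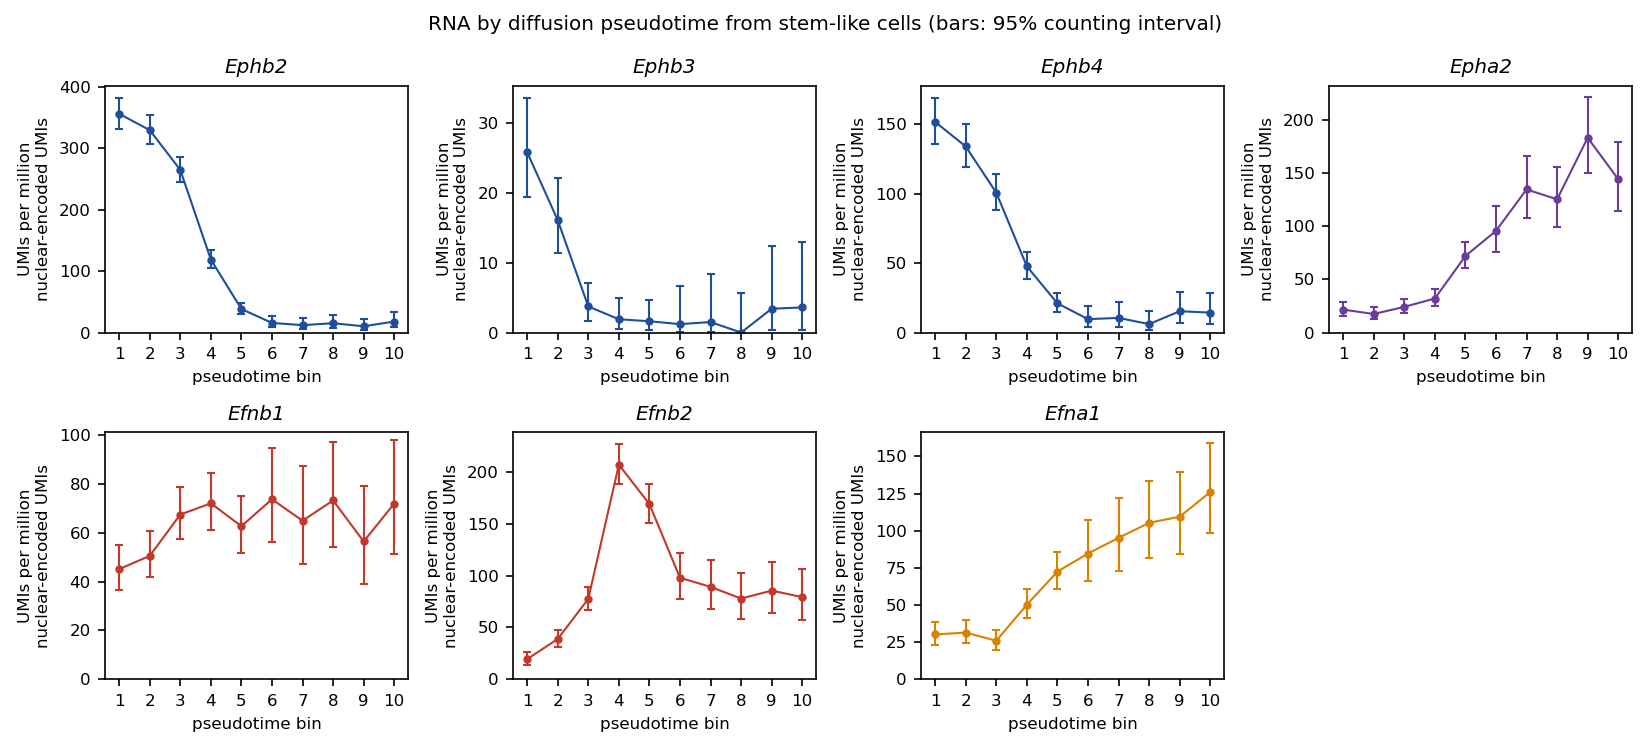
RNA of the 7 genes in CPM of nuclear-encoded UMIs over 10 bins of diffusion pseudotime, bin 1 nearest the stem-like cells, with 718 or 719 cells a bin and 95% counting intervals. The Ephb receptors go down between bins 2 and 6, Efnb2 peaks at 207 in bin 4, and Epha2 and Efna1 are highest in bins 9 and 10. The largest cluster of bins 9 and 10 is the main cluster of zones 2 and 3, not that of zone 5.

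UMIs of EphB receptors outnumbered those of ephrin-B ligands in the crypt classes and not in the zones. The UMIs of Ephb2, Ephb3 and Ephb4 divided by those of Efnb1 and Efnb2 gave a ratio of 4.85 in Paneth-like (3.61 to 6.63), 6.60 in stem-like (5.58 to 7.85) and 4.60 in cycling-like cells (4.12 to 5.15). The ratio was 0.574 in the unnamed cluster of 959 cells and 0.226, 0.173, 0.200, 0.139 and 0.175 in zones 1 to 5. The stem-like ratio was 37.8 times that of zone 5, a log2 difference of 5.24 (4.48 to 6.001). Counts are not corrected for transcript length here, so a ratio above or below 1 does not compare protein or transcript numbers. Its shift between classes can also depend on length, because the mix of genes in the sums differs between classes. Efnb1 and Efnb2 had 100 and 59 UMIs in stem-like cells, and 44 and 59 in zone 5.

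**Figure D3:**
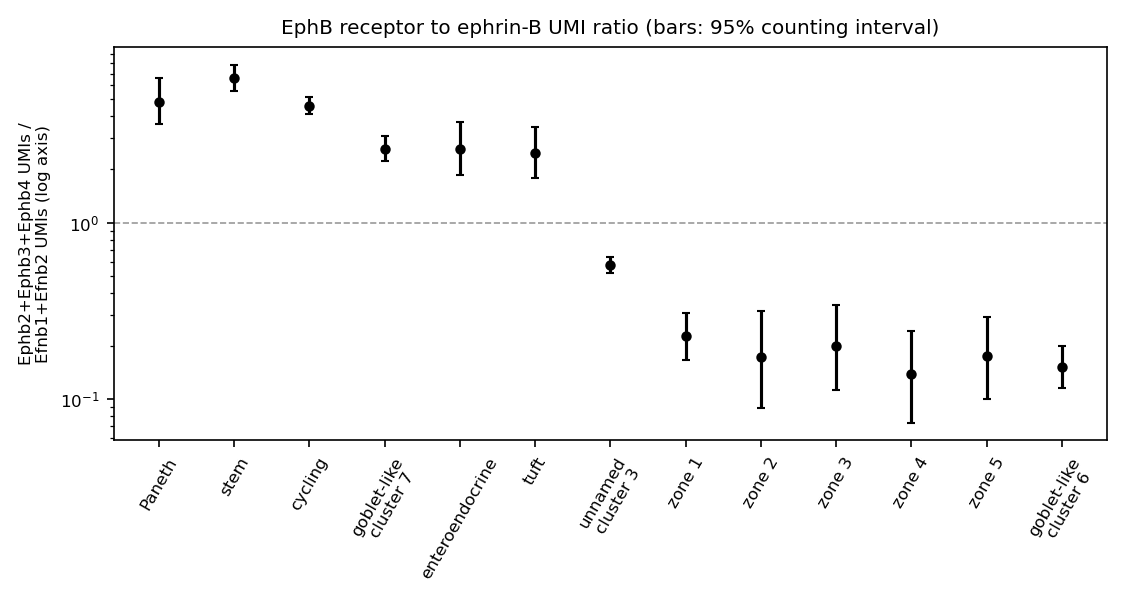
Ratio of Ephb2, Ephb3 and Ephb4 UMIs to Efnb1 and Efnb2 UMIs on a log axis, by cell class or cluster, with 95% counting intervals. Crypt classes lie between 4.60 and 6.60, goblet-like cluster 7, enteroendocrine-like and tuft-like cells near 2.5, and the 5 zones and goblet-like cluster 6 below 0.23.

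Among secretory cells, goblet-like clusters 7 and 6 held the same contrast of EphB receptors and Efnb2. Goblet-like cells fell into clusters that differed in crypt markers: cluster 7 (579 cells) had Mki67, a proliferation gene, at 252 CPM and Lgr5 at 66.7, against 24.9 and 4.83 in cluster 6 (664 cells), and the 11 goblet markers at 28163 against 108793. Ephb2 stood at 209 CPM in cluster 7 and 33.8 in cluster 6, a log2 difference of 2.63 (2.20 to 3.09). Ephb4 stood at 84.1 in cluster 7 and 4.83 in cluster 6, a difference of 4.12 (3.04 to 5.46), and Ephb3 at 11.8 and 3.45, a difference of 1.77 (0.32 to 3.53). Efnb2 was lower in cluster 7, at 63.9 against 193 in cluster 6 (log2 -1.59, -1.92 to -1.27), as was Epha2, at 14.6 against 55.3 (log2 -1.92, -2.62 to -1.27). Efnb1 differed by -0.68 and Efna1 by -0.01, with Efna1 at 27.5 CPM in cluster 7 and 27.6 in cluster 6 and an interval of its difference of -0.64 to 0.63. Of 5147 genes, 26.1% were at least 2-fold higher in cluster 7 and 7.5% at least 2-fold lower, so 3 of 7 and 2 of 7 stand beside those shares. The receptor to ligand ratio was 2.62 in cluster 7 and 0.152 in cluster 6, and that of enterocyte-like cells was 0.192. A further goblet-like cluster of 257 cells had high doublet scores, 0.173 at the median, and is given no weight here.

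Tuft-like cells held Ephb2 and Ephb4 near their stem-like levels together with more Efnb2, and enteroendocrine-like cells held less of both receptors. In the 96 tuft-like cells Ephb2 stood at 389 CPM (318 to 472), above the 337 of stem-like cells but with overlapping intervals. Ephb4 stood at 105 and Efnb2 at 135 (94.4 to 187), 4.74-fold above stem-like cells (log2 2.24, 1.60 to 2.87). Ephb3 had 0 UMIs in tuft-like cells, where the floor of 3 counts is 11.2 CPM and the interval reaches 13.8 CPM. Tuft-like cells also carried stem cell RNA, with Lgr5 at 333 CPM against 537 in stem-like cells. The 11 stem markers stood at 2962 CPM in tuft-like against 8324 in stem-like cells. The part of this RNA in the tuft-like Ephb2 and Ephb4 levels was not tested. In the 210 enteroendocrine-like cells Ephb2 stood at 183 (149 to 221), Ephb3 at 14.2, Ephb4 at 30.1 and Efnb2 at 47.9. Over stem-like cells these were log2 differences of -0.89 (-1.20 to -0.59) for Ephb2, -2.26 (-3.06 to -1.56) for Ephb4 and 0.75 (0.04 to 1.43) for Efnb2. Epha2 was at 14.98 CPM from 4 UMIs in tuft-like and 17.7 from 10 UMIs in enteroendocrine-like cells, near its crypt level. EphB and ephrin-B genes are also known from blood vessels, and the 6 endothelial markers summed to 0 UMIs in Paneth-like, 6 in crypt progenitor-like, 13 in enterocyte-like, 8 in tuft-like and 13 in enteroendocrine-like cells, with Cdh5 and Eng at 0 in all of these. As levels these were 29.96 CPM in tuft-like and 23.0 in enteroendocrine-like cells, above the 0.983 of crypt progenitor-like and the 3.54 of enterocyte-like cells, and their part in the Ephb and Efnb2 levels was not tested. The 6 fibroblast markers summed to 1 UMI in crypt progenitor-like and 1 in enterocyte-like cells.

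Promoter accessibility followed RNA for a pair of the receptors only. A promoter peak is one that overlaps 1000 bases before to 500 bases after an annotated start, and its fragments are given per 1000000 fragments in peaks (FPM). At Ephb2 these were 26.7 FPM in crypt progenitor-like and 8.03 in enterocyte-like cells, a log2 difference of 1.73 (1.48 to 2.00). At Ephb4 they were 35.2 and 6.04 in the same classes, a difference of 2.54 (2.26 to 2.84). Of 13288 genes, 20.2% were at least 2-fold higher and 2.92% at least 2-fold lower in this comparison, with a median of 0.31. Ephb3 had 59.1 in crypt progenitor-like and 36.9 in enterocyte-like cells, a difference of 0.68 (0.55 to 0.81), far smaller than its RNA difference of 3.19. The Ephb3 promoter stayed between 31.8 and 43.2 in the 5 zones, in which its RNA was at 0 to 3 UMIs.

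At Epha2 the promoter difference had the opposite sign to that of the RNA, with 23.6 in crypt progenitor-like and 16.6 in enterocyte-like cells (log2 0.51, 0.31 to 0.72). It was near the median gene, at 0.31, and is not read as a crypt profile. The ligands differed little: Efnb1 by 0.15 (-0.03 to 0.33), Efnb2 by -0.41 (-0.55 to -0.27) and Efna1 by -0.33 (-0.42 to -0.24). The intervals of Efnb2 and Efna1 lay below that median, the direction of their RNA. Between the zones, Ephb2 was the 1 gene of 7 past 2-fold, with 5.92 in zone 5 from 16 fragments and 12.5 in zone 1 from 71 fragments (log2 -1.08, -1.96 to -0.28); 0.983% of 11392 genes were at least 2-fold higher there and 9.06% at least 2-fold lower. The call was lost without the cells of highest doublet score and with zones cut by pseudotime, at -0.98 and -0.89. In Paneth-like over stem-like cells 1.49% of 12603 promoters were at least 2-fold higher and 3.51% at least 2-fold lower, and none of the 7 was. The largest difference there was that of Efnb2, at 53.4 in Paneth-like and 34.5 in stem-like cells (log2 0.63, 0.32 to 0.93), a gene whose RNA differed by -0.06. At Ephb3 the promoter had 65.7 in Paneth-like and 59.3 in stem-like cells, with an interval of the difference of -0.12 to 0.41, although its RNA was 2.36-fold higher in the Paneth-like cells.

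**Figure D4:**
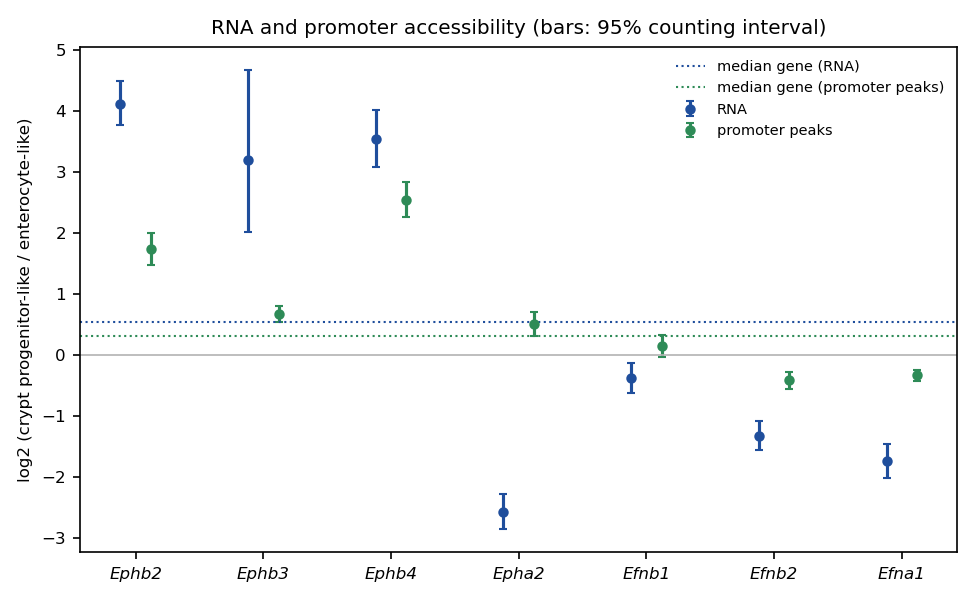
Log2 ratio of crypt progenitor-like over enterocyte-like cells for RNA (blue) and promoter peaks (green) of each gene, with 95% counting intervals; dotted lines mark the median gene of each assay, 0.54 and 0.31. RNA and promoter are both past 1 for Ephb2 and Ephb4, while Ephb3, Epha2, Efnb2 and Efna1 have promoter values within 0.7 of 0.

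Peaks around the Ephb genes were mostly or often higher in the crypt. Within 50 kb of the start, promoter peaks included, and among peaks with at least 20 fragments, 13 of 20 at Ephb2, 10 of 15 at Ephb3 and 7 of 15 at Ephb4 were at least 2-fold higher in crypt progenitor-like cells relative to enterocyte-like cells, against 26.7% of 142062 peaks. For Epha2 it was 0 of 22, and 6 of 22, or 27.3%, were at least 2-fold lower, close to the 20.2% of all peaks. Efnb1 had 5 of 19 higher and 4 lower, Efnb2 1 of 14 higher and 4 lower, and Efna1 7 of 33 higher and 4 lower. These windows are not assigned to 1 gene: the Efna1 window also holds Efna3 at chr3:89313899-89322939 and ends just before Efna4 at chr3:89333393-89338028, so a peak there cannot be given to Efna1.

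The peak 2.2 kb before the start of Ephb3, at chr16:21202109-21202985, held 22.5 FPM in Paneth-like, 13.9 in stem-like and 8.13 in cycling-like cells, the order of the RNA in these classes. Between crypt progenitor-like cells, at 10.3, and enterocyte-like cells, at 1.25, it differed by log2 3.04 (2.44 to 3.71). The Ephb2 peak at chr4:136829615-136830499, 5.9 kb past the start, held 21.1 in crypt progenitor-like and 4.06 in enterocyte-like cells (log2 2.38, 2.03 to 2.74). The Epha2 peak at chr4:141308097-141308993, 7.3 kb past the start and within the gene body, held 3.33 in crypt progenitor-like and 33.4 in enterocyte-like cells (log2 -3.33, -3.68 to -2.99). This was the direction of its RNA, while its promoter was near the median gene. This Epha2 peak also held 11.4 in Paneth-like against 2.85 in stem-like cells. At Efna1 the peak 7.6 kb before the start, chr3:89288250-89289171, held 32.6 in zone 5 and 9.49 in zone 1 (log2 1.78, 1.27 to 2.29), beside an RNA difference of 1.49. At Efnb2 the peak 18.5 kb before the start, chr8:8679243-8680156, held 4.07 in zone 5 and 15.1 in zone 1 (log2 -1.89, -2.95 to -0.98). Ahead of Efnb1 3 peaks between 3.2 and 5.1 kb before the start had log2 differences of -2.77, -2.10 and -2.28 between crypt progenitor-like and enterocyte-like cells, nearest first, while its RNA differed by -0.37. Farther ahead of Efnb1, peaks went the other way. The peak 8.8 kb before the start differed by 3.49 (2.05 to 5.41), from 57 against 4 fragments, and that at 12 kb by 1.80. These peaks were picked for their size after their values were seen.

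**Figure D5:**
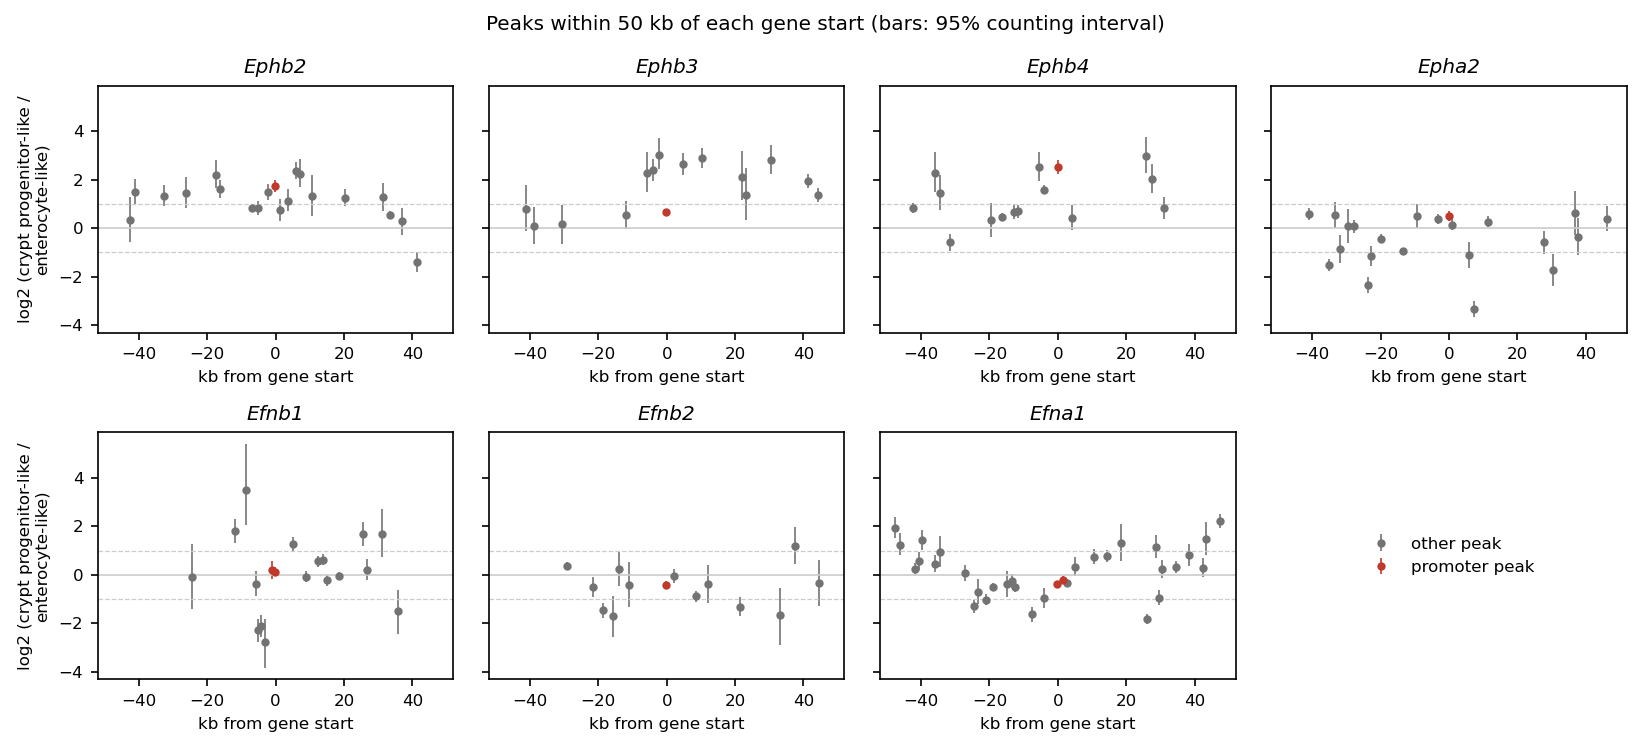
Log2 ratio of crypt progenitor-like over enterocyte-like fragments for each peak with at least 20 fragments, by its distance in kb from the gene start, with promoter peaks in red and 95% counting intervals. Most peaks at Ephb2 and Ephb3 lie above the dashed line of 2-fold, and at Epha2 none does while the peak at 7.3 kb stands at -3.33.

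Of the other 15 Eph and ephrin genes, 4 had at least 100 UMIs over all kept cells. Epha4, an EphA receptor that also binds ephrin-B ligands, shared the crypt profile, with 63.2 CPM in crypt progenitor-like and 3.27 in enterocyte-like cells (386 and 12 UMIs, log2 4.28). Efna4, an ephrin-A ligand on the chromosome of Efna1 with Efna3 between them, ran against Efna1, with 21.0 in crypt progenitor-like and 2.99 in enterocyte-like cells (128 and 11 UMIs, log2 2.81). Epha7 had 60 UMIs in crypt progenitor-like and 0 in enterocyte-like cells, at least 12-fold higher with 3 counts over the enterocyte-like class as the floor, and 47 of the 60 were in stem-like cells. Epha1 was a villus RNA below the tip, at 11.5 in crypt progenitor-like and 48.4 in enterocyte-like cells (log2 -2.08), with 56.2, 56.6, 60.2, 55.3 and 7.87 in zones 1 to 5. Its last zone, with 5 UMIs, did not overlap the other 4, and it was in this zone that Epha2 had its highest level. Of the 15, 5 had at least 20 UMIs over both classes, and 3 of these were at least 2-fold higher in crypt progenitor-like cells and 1 lower, beside 36.4% and 15.4% of all genes.

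Signalling partners of Eph receptors and ephrins had no common direction. Of 33 genes measured from a list of 36, 13 were at least 2-fold higher in crypt progenitor-like cells and 5 at least 2-fold lower, near the 36.4% and 15.4% of all genes, with a median of 0.60 beside 0.54 for all genes. Tiam1, a Rac exchange factor recruited by EphA2 and ephrin-B, stood at 212 CPM in crypt progenitor-like and 5.44 in enterocyte-like cells (log2 5.28), and Grip1, a PDZ protein that binds ephrin-B tails, at 137 and 8.16 in these classes (log2 4.06). Dvl2, a Dishevelled protein, and the phosphatase Ptpn13 differed by log2 2.44 and 1.93. The kinase Src stood at 35.9 CPM in crypt progenitor-like and 101 in enterocyte-like cells (log2 -1.49). Anks1b and Mmp7, a matrix metalloproteinase that Paneth cells secrete, differed by log2 -1.73 and -1.62. Mmp7 is among the 12 Paneth markers, which together stood at 6968 CPM in enterocyte-like and 2485 CPM in crypt progenitor-like cells. Its difference is therefore not read as expression in enterocytes, and the part of free RNA in it was not tested. Of 17 genes measured from 20 Wnt targets and receptors, 11 were at least 2-fold higher in crypt progenitor-like cells and 1, Sp5, lower, beside the same 36.4% and 15.4%, with a median of 1.49. Lgr5 differed there by log2 4.87, Tnfrsf19 by 4.60, Znrf3 by 4.20 and Cd44 by 3.11. In Paneth-like over stem-like cells 1 of 18 measured genes of this list was at least 2-fold higher and 12 were at least 2-fold lower, beside 6.12% and 26.4% of all genes. Lgr5, Ascl2, Axin2, Rnf43, Znrf3 and Tnfrsf19 of the Wnt list are also stem markers used to name the stem-like cluster. The counts of this list are therefore partly set by that naming.

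The genes most like each member over the 17 clusters, among 9672 genes, are a description of 1 library with shared depth and composition. For Ephb2 they were Nfix (Pearson r 0.98), Nmt2, Igf1r, Mcc and Ttc27, and for Ephb4 Yars2 (0.97), Mpp6, Myb, Vars and Cers4. For Ephb3, with few UMIs, they were Zfp503 (0.86), Morc4, Iffo2, Fam222a and Pla2g12a. For Epha2 they were Smad7 (0.97), Spint1, Ccng2, Src and Npc1l1, and for Efna1 Zcchc9 (0.93), Pfkfb4, Map2k2, Mia2 and Zbtb7b. For Efnb1 they were Pdcd10 (0.89), Bak1, Ostf1, Ist1 and Krt8, and for Efnb2 E230020D15Rik (0.91), Slc25a24, Ms4a8a, Mvp and C77080. Between the members, Efnb1 and Efnb2 correlated at 0.75, Epha2 and Ephb2 at -0.87, Ephb3 and Ephb2 at 0.58, and Ephb3 and Efnb2 at -0.77.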

How the data were processed

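The deposited matrix holds raw counts from Cell Ranger ARC 2.0.2 on mm10, per the file headers and the submitters' processing notes: UMI counts for 55401 genes and counts in 146191 peaks, with 0 columns left unmapped. Of the peak counts, 87.6% of values were even, so they were halved and rounded up to fragments. Barcodes with at least 500 UMIs, 300 genes and 1000 peak counts were kept. Scrublet called 0 of 9872 cells and has not worked, so doublets were not removed; cells were left out by score only as an alternative.

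RNA was clustered in scanpy 1.11.5 (1500 variable genes, 30 components, 15 neighbours, Leiden resolution 1) without Eph, ephrin, partner, Wnt-list and mtDNA genes and without a random part of the others, 27768 genes in all. The clustering still used markers of the same cells. Names came from marker lists by a rule set after the clusters were seen (median log2 of at least 0.4 and at least 0.4 above the next list, with at least 3 markers). Sums per class were compared as ratios with exact conditional binomial 95% intervals; a count of 0 is given with a floor of 3 counts. "Past 2-fold" means at least 2-fold with at least 20 counts over both classes. No p-value was computed. Likeness used log2 levels with 5 added. The fold rule was tested on simulated data.

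The 7 genes and the lists were chosen with earlier results of these data known. Named genes were the 7, other family genes with at least 100 UMIs, for the partner and Wnt lists the 4 largest differences past 2-fold in each direction, and the 5 genes of highest likeness to each member. One gene of the partner list that this rule names is not reported here. Alternatives changed the denominator, depth, clusters, zones, count minimum, promoter window and fragment counting. Gene roles are textbook background; sequences are from RefSeq. Antisense and overlapping genes were not separated, as the strand setting is not given in the sources used here.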

Additional observations from a re-analysis of the deposited data

How the results depend on the processing

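With 1 animal and 1 library of each kind, all intervals cover counting error only. Of 314 values of single genes under alternatives, 278 stayed within their interval and 36 moved out of it; no value past 2-fold as reported changed sign. Efnb1 in Paneth-like over stem-like cells, under 2-fold at -0.60, came to 1.04 with thinning. A further 8 values of Ephb3, in comparisons with zone 5, met a count of 0 and gave no value. With UMIs of all kinds, 1 gene rather than 3 was lower in crypt progenitor-like over enterocyte-like cells (Epha2) and 1 rather than 3 in stem-like cells over zone 5 (Epha2), and 0 rather than 1 was lower in Paneth-like over stem-like cells. On that scale zone 5 over zone 1 had 0 genes higher and 2 lower, against 2 and 0. In Paneth-like over stem-like cells, thinning each cell to 500 nuclear-encoded UMIs gave 2 higher (Ephb3 and Efnb1) and 2 lower (Ephb2 and Ephb4), and leaving out the 8% of cells of highest doublet score (835 cells, chosen after seeing the data) gave 3 lower (Ephb2, Ephb4 and Epha2). In zone 5 over zone 1, 1 gene (Efna1) was higher without cells above 80% mtDNA-encoded UMIs, with thinning, with the landmark score of each cell alone and with zones by pseudotime; the last gave 1 lower (Ephb2). The 1 lower promoter there became 0 without the highest doublet scores and with zones by pseudotime. The receptor to ligand difference between stem-like cells and zone 5 was 6.25 after thinning, against 5.24. The cause was not tested in any of these. Classes from clusters of ATAC peaks were used for crypt progenitor-like over enterocyte-like cells and left Efnb2 at -0.70, under 2-fold. The RNA and ATAC libraries share 1 replicate number, that of the same cells of 1 animal, and no paired analysis cell by cell was made. RNA and promoter differences between classes were only set side by side, without a test. Depth limits Ephb3 most, with 213 UMIs over all kept cells.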
